A study of Mus musculus with 6 samples.

Results

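The excitatory amino acid transporters are the plasma membrane carriers that clear glutamate, the transmitter of photoreceptors, bipolar cells and retinal ganglion cells (RGCs), from the space around synapses. The 5 genes of this family, *Slc1a1*, *Slc1a2*, *Slc1a3*, *Slc1a6* and *Slc1a7*, were selected by symbol from the 31169 genes of the count table. All 5 were found, and all 5 passed the filter on low counts that left 17707 genes for testing. Whole retina of C57BL/6 mice was profiled by poly(A) RNA sequencing in the Microbead Occlusion Model, in which polystyrene beads block the outflow of aqueous humor and raise intraocular pressure (IOP). Mice received an intracameral injection of 1 μL of saline (3 libraries) or of microbeads 15 μm in diameter (3 libraries) at 1 month of age (the volume is that of the labels, and the study's methods give a larger one), and retina was taken 4 weeks later, at 2 months of age. Both groups were of the same strain, age and tissue, and no transgene is named for either. The question was which transcripts differ in level between saline and microbead retina. Nothing in the labels says which mouse each library came from, so the p-values measure the spread between these libraries.

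The 5 carriers couple the uptake of glutamate to the sodium gradient across the membrane, and each also passes chloride when it binds glutamate. In mammalian retina they are divided among cell types. *Slc1a3* (GLAST) is the main carrier of Müller glia, the radial glia that span the retina and turn glutamate into glutamine. *Slc1a2* (GLT-1) is known from cone terminals and bipolar cells. *Slc1a1* (EAAC1) is known from RGCs, amacrine cells and horizontal cells. *Slc1a7* (EAAT5) sits at photoreceptor and bipolar cell terminals, where its chloride current dampens release. *Slc1a6* (EAAT4) is known chiefly from Purkinje cells of the cerebellum.

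The coding sequences are related, which bears on whether reads can be assigned to 1 gene. The proteins they code for are 47.9% to 69.5% identical over the 10 pairs, the closest pair being *Slc1a3* and *Slc1a6*. A conserved stretch of 60 coding bases is shown for each gene from the GENCODE vM21 transcripts, 5′ to 3′ on the coding strand. It was placed by a short motif that all 5 proteins share, and other stretches were not compared. The 42 bases that are identical in all 5 genes are in capitals.
Slc1a1: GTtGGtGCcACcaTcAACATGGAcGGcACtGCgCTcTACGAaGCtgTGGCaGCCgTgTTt
Slc1a2: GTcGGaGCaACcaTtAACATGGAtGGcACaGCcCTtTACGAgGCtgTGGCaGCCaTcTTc
Slc1a3: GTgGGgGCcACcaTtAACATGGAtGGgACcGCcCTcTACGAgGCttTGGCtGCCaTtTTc
Slc1a6: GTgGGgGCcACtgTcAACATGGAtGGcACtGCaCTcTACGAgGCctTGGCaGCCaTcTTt
Slc1a7: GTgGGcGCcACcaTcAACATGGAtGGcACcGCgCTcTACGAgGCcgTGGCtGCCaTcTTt

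Of the 20 residues this stretch codes for, 17 are the same in all 5 genes. The DNA differs at the third base of most codons, so that the longest run of identical coding bases between any pair of the genes was 26 (*Slc1a3* and *Slc1a6*). None of the 100-base stretches of their annotated transcripts, the length of 1 read, occurred in the same direction in transcripts of another gene (0% for each of the 5). Of the 31-base stretches, at most 2.04% (*Slc1a7*) occurred elsewhere in the same direction, and none in another Slc1a gene. Matches to the opposite strand of other transcripts were not searched, so this comparison does not cover genes that overlap on the opposite strand.

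The genes lie apart in the genome (GRCm38). Positions are those of GENCODE vM21, and identifiers are those of the count table. In vM21, *Slc1a1* and *Slc1a6* have the later versions ENSMUSG00000024935.11 and ENSMUSG00000005357.9, so their exon lengths may differ from those of the counted models. *Slc1a2* (ENSMUSG00000005089.15) is on the plus strand at chr2:102658659-102790784 with 12 annotated transcripts, 7 of them coding. *Slc1a3* (ENSMUSG00000005360.14) is on the minus strand at chr15:8634124-8710764, *Slc1a7* (ENSMUSG00000008932.9) on the plus strand at chr4:107968332-108013532, *Slc1a1* (ENSMUSG00000024935.10) on the plus strand at chr19:28835049-28913960 and *Slc1a6* (ENSMUSG00000005357.8) on the plus strand at chr10:78780496-78814765. The exons of *Slc1a1* share 2631 bases with those of *4430402I18Rik*, a coding gene on the opposite strand. That gene was measured at 1.24 to 1.94 counts per 1000000 (CPM) in saline and 2.08 to 3.65 CPM in microbead retina, against at least 32.9 CPM for *Slc1a1* in every library. The libraries were stranded, but whether strand was used in counting is not given in the sources used here, so reads of the pair may not be fully separated. *Slc1a2* shares 189 exon bases with the antisense gene *Gm13872*, which had at most 5 counts in any library.

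The libraries held 13574949 to 46481382 counts, with 36085737 or more in each saline library and 19834366 or fewer in each microbead library. Mitochondrial transcripts took 3.19% to 3.57% of counts in saline and 8.90% to 10.6% in microbead libraries. With these transcripts left out of library sizes, and without the TMM scaling of the main fit, the log2 fold changes of the 5 transporters moved by about 0.1 or less. In that fit 0 were called. The retinal identity of the tissue was plain from its markers, with the 14 rod genes summing to 67180 to 99311 CPM. Single saline libraries stood apart. Saline replicate 1 held the lowest sum of the 13 RGC markers, 442 CPM against 1053 to 1579 CPM in the other 5 libraries, and saline replicate 3 held 385 CPM of lens markers, whereas the microbead libraries held 0.650 to 1.75 CPM. The 8 markers of pigment epithelium summed to 11.8 to 235 CPM in saline and 103 to 122 CPM in microbead libraries. The 10 endothelial markers, of which 4 were called lower, summed to 673 to 983 CPM and 454 to 589 CPM without overlap, and their part in the results was not tested. In the running numbering of the library names, all saline libraries come before all microbead libraries. Position in that numbering and injection therefore cannot be told apart. Over all genes tested with edgeR, 2261 (12.8%) had an adjusted p-value under 0.05, 1118 of them lower (6.31%) and 1143 higher (6.46%) in microbead retina. This count was 2621, 293 or 1480 when the first, the second or the third saline library was left out. It was 748, 768 or 46 when the first, the second or the third microbead library was.

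No glutamate transporter passed the threshold. The carrier whose level differed most was *Slc1a2*, the GLT-1 gene, with an estimated difference of -30.1% in microbead retina, no overlap between groups and an adjusted p-value of 0.0830 by edgeR. *Slc1a6* showed a similar difference at a far lower level, with groups that overlapped. *Slc1a1*, *Slc1a3* and *Slc1a7* differed by less than the spread between libraries. Of the 5 genes, 0 were called by edgeR, against 12.8% of all genes tested. An unadjusted edgeR p-value under 0.05 was found for 1 of them (*Slc1a2*), and for 5564 of the 17707 genes tested. DESeq2 called 1 of them (*Slc1a2*), and 3582 genes in all. The median log2 fold change of the 5 transporter genes was -0.12, beside -0.03 over all genes tested. In whole retina, fewer cells of a type and less RNA per cell cannot be told apart.

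**Figure D1:**
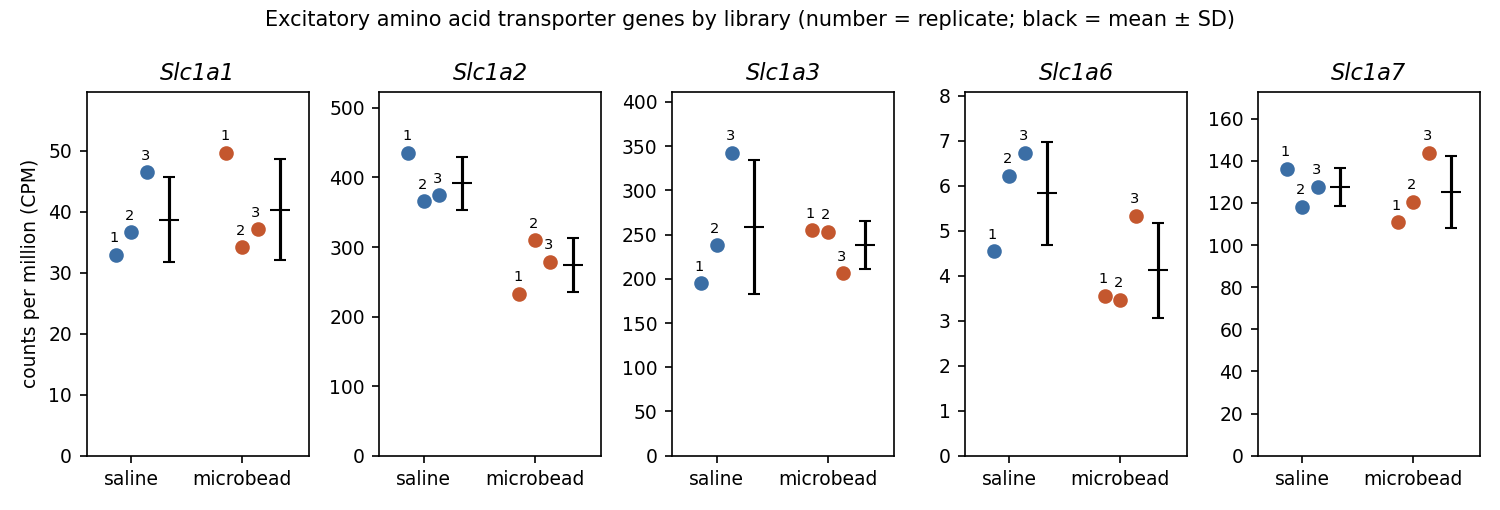
Each panel plots the level of 1 gene in CPM (vertical axis, from 0) in the 3 saline and 3 microbead libraries, with the replicate number above each point and the mean ± SD of 3 libraries in black. The 3 microbead values of Slc1a2 (233 to 310 CPM) lie below the 3 saline values (366 to 436 CPM), while the groups overlap for the other 4 genes.

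*Slc1a2* was measured at 436, 366 and 374 CPM in saline replicates 1 to 3 and at 233, 310 and 279 CPM in microbead replicates 1 to 3. Every microbead library was below every saline library, a separation in that direction also seen for 18.9% of all genes tested. The mean was 392 ± 38.2 CPM (SD, n = 3) in saline and 274 ± 38.9 CPM (n = 3) in microbead retina. The log2 fold change was -0.52 (standard error 0.18, 95% interval -0.92 to -0.12), which corresponds to a change of -30.1% (-47.1% to -7.77%), with an unadjusted p-value of 0.0167 and an adjusted p-value of 0.0830 by edgeR. DESeq2 gave a log2 fold change of -0.50 with an adjusted p-value of 0.0437, so that the call depended on the tool. With any 1 library left out, the log2 fold change of *Slc1a2* ran from -0.60 (without microbead replicate 2) to -0.42 (without microbead replicate 1), with edgeR adjusted p-values of 0.113 to 0.188. Its direction was the same in all 15 alternative fits.

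*Slc1a3*, the Müller glial carrier, was measured at 195, 238 and 343 CPM in saline replicates 1 to 3 and at 255, 253 and 207 CPM in microbead replicates 1 to 3. The saline libraries spanned 1.76-fold and enclosed all 3 microbead values. The mean was 259 ± 75.9 CPM in saline and 238 ± 27.4 CPM in microbead retina (n = 3 each). The log2 fold change was -0.12 (standard error 0.23, 95% interval -0.62 to 0.39, edgeR adjusted p = 0.758), and in percent the interval ran from -35.1% to 30.7%. The estimate turned on the saline libraries that stood apart, since it was -0.29 without saline replicate 1 (edgeR adjusted p = 0.409) and 0.14 without saline replicate 3 (edgeR adjusted p = 0.708). Astrocytes of the nerve fiber layer also hold *Slc1a3*. Their 6 markers summed to 75.4 to 114 CPM in saline and 96.4 to 107 CPM in microbead retina. Of the 6, 1 (*Aldh1l1*) was called lower, beside 6.31% of all genes tested. The other 5 were not called and had log2 fold changes of 0.04 to 0.62, and the median of the list was 0.29.

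*Slc1a7*, the carrier of photoreceptor and bipolar terminals, had the narrowest spread of the 5 genes among saline libraries, with a coefficient of variation of 7.09%. It was measured at 136, 118 and 128 CPM in saline replicates 1 to 3 and at 111, 121 and 144 CPM in microbead replicates 1 to 3. The lowest and the highest value both came from microbead libraries. The mean was 127 ± 9.03 CPM in saline and 125 ± 17.0 CPM in microbead retina (n = 3 each), and the log2 fold change was -0.03 (standard error 0.17, 95% interval -0.41 to 0.35, edgeR adjusted p = 0.936). The sign of this small difference changed under other scalings, to 0.06 when mitochondrial genes were left out of library sizes and TMM scaling was not used.

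*Slc1a1*, the neuronal carrier EAAC1, was measured at 32.9, 36.6 and 46.4 CPM in saline replicates 1 to 3 and at 49.7, 34.2 and 37.1 CPM in microbead replicates 1 to 3. Microbead replicate 1 was above every saline library, and the other 2 microbead libraries were within the saline range. The mean was 38.7 ± 6.99 CPM in saline and 40.3 ± 8.24 CPM in microbead retina (n = 3 each), with a log2 fold change of 0.06 (standard error 0.21, 95% interval -0.41 to 0.53, edgeR adjusted p = 0.872). Without microbead replicate 1 the log2 fold change of *Slc1a1* was -0.12 (edgeR adjusted p = 0.722), and without saline replicate 1 it was -0.04 (edgeR adjusted p = 0.916). A processed pseudogene within the span of *Slc1a1*, *Gm5822*, has no exon base in common with it and lies on the opposite strand. It was called lower, with a log2 fold change of -3.65 (standard error 0.50, edgeR adjusted p = 0.00833), from 2.68 ± 0.518 CPM in saline to 0.213 ± 0.0690 CPM in microbead retina. Its counts were 103, 103 and 111 in saline and 3, 4 and 3 in microbead replicates 1 to 3. The microbead counts were at or next to the detection floor of 3 counts.

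*Slc1a6*, the EAAT4 gene, was the rarest, with 171, 300 and 236 counts in saline replicates 1 to 3 and 69, 48 and 82 counts in microbead replicates 1 to 3. These counts correspond to 4.54, 6.22 and 6.73 CPM in saline and 3.55, 3.47 and 5.33 CPM in microbead retina. Microbead replicates 1 and 2 were below every saline library, and microbead replicate 3 was within the saline range. The mean was 5.83 ± 1.146 CPM in saline and 4.11 ± 1.05 CPM in microbead retina (n = 3 each). The log2 fold change was -0.50 (standard error 0.31, 95% interval -1.20 to 0.20, edgeR adjusted p = 0.302), an interval that holds both no change and a fall of more than 2-fold. The counting error alone reached 14.4% of the value at 48 counts. *Slc1a6* stayed lower in all 15 alternative fits, with a log2 fold change as low as -0.74 without microbead replicate 3 and no adjusted p-value under 0.191.

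**Figure D2:**
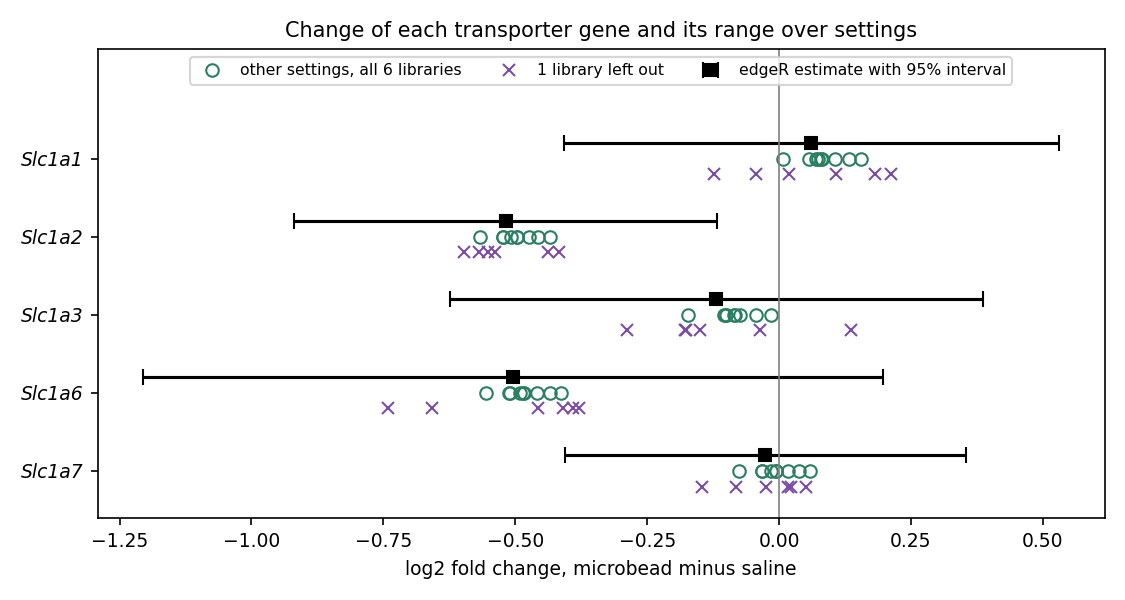
The log2 fold change of microbead minus saline (horizontal axis) is plotted for each gene as the edgeR estimate with its 95% interval (black squares), for 9 other settings on all 6 libraries (green circles) and with each library left out (violet crosses). All points of Slc1a2 and Slc1a6 lie below 0, and those of Slc1a1, Slc1a3 and Slc1a7 lie on both sides of 0.

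To compare the carriers with each other, CPM were divided by the length of all annotated exons of the gene in kilobases, giving CPM per kb. On this scale *Slc1a7*, *Slc1a3* and *Slc1a2* formed an upper group in saline retina, and *Slc1a1* and *Slc1a6* a lower one. *Slc1a7* stood at 37.9 ± 2.69 CPM per kb (SD, n = 3), *Slc1a3* at 30.3 ± 8.89 and *Slc1a2* at 29.8 ± 2.91. The ranges of these 3 genes over the saline libraries overlapped from each to the next. *Slc1a1* stood at 4.68 ± 0.846 CPM per kb and *Slc1a6* at 2.71 ± 0.533, each below its upper neighbour in all 3 saline libraries with no overlap of their ranges.

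In microbead retina the order was the same, and no neighbouring ranges overlapped. *Slc1a7* stood at 37.2 ± 5.06 CPM per kb, *Slc1a3* at 27.9 ± 3.21, *Slc1a2* at 20.8 ± 2.96, *Slc1a1* at 4.88 ± 0.998 and *Slc1a6* at 1.91 ± 0.488 (SD, n = 3). The distance of *Slc1a2* below *Slc1a3* was therefore wider than the spread in microbead libraries and within it in saline libraries. The summed level of the 5 genes was 105 ± 8.92 CPM per kb in saline and 92.8 ± 3.96 in microbead retina. The share of *Slc1a2* in that sum was 32.3%, 28.4% and 24.7% in saline replicates 1 to 3 and 20.1%, 24.9% and 22.3% in microbead replicates 1 to 3. The means were 28.5% ± 3.82 and 22.4% ± 2.40, and the groups overlapped, since microbead replicate 2 was above saline replicate 3. The share of *Slc1a7* was 36.1% ± 3.28 in saline and 40.1% ± 4.26 in microbead retina, and that of *Slc1a3* was 28.5% ± 6.26 and 30.2% ± 4.32.

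The order within the upper group depended on which length was used, because the annotated exons of *Slc1a3* cover 8537 bases and its longest coding transcript 4163. By the longest coding transcript, *Slc1a3* came first in saline retina at 62.1 ± 18.2 CPM per kb, followed by *Slc1a7* at 42.4 and *Slc1a2* at 33.8. The corresponding levels in microbead retina were 57.2, 41.6 and 23.6 CPM per kb. *Slc1a1* (10.2 in saline, 10.6 in microbead) and *Slc1a6* (2.87 and 2.03) stayed the lowest in both groups.

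**Figure D3:**
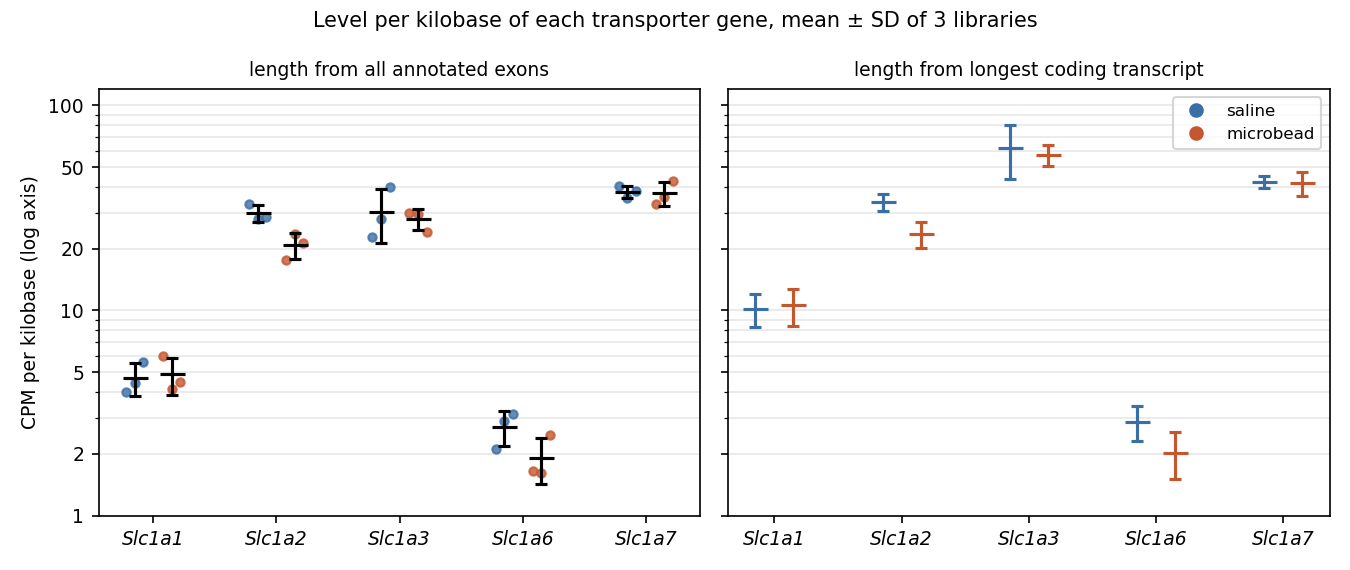
Level in CPM per kb (log axis) of each gene in saline and microbead retina, with the length taken from all annotated exons (left, points for the 3 libraries, mean ± SD in black) or from the longest coding transcript (right, mean ± SD of 3 libraries in the color of the group). The group means of Slc1a2, Slc1a3 and Slc1a7 lie at 20.8 or above under either length, and those of Slc1a1 and Slc1a6 at 10.6 or below.

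Each carrier was then set against markers of the cells known to hold it, as the log2 ratio of its CPM to the summed CPM of the marker list. For 3 libraries against 3, the smallest p-value of the exact permutation test is 0.1, so none of the 10 ratios could pass 0.05. *Slc1a3* was the one carrier whose ratio was higher in every microbead library than in every saline library. Its log2 ratio to the 12 Müller glial markers was -5.31, -4.89 and -4.96 in saline replicates 1 to 3 and -4.75, -4.75 and -4.74 in microbead replicates 1 to 3. All microbead values were above all saline values, and the difference was 0.30 (two-sided exact permutation p = 0.1, 0.333 after Benjamini-Hochberg adjustment over the 10 ratios). It was 0.17 without saline replicate 1, the lowest value with any library left out.

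The denominator also differed between groups, as the summed Müller markers were 7036 to 10651 CPM in saline and 5525 to 6880 CPM in microbead retina. Of the 12 genes, 3 were called lower (beside 6.31% of all genes tested) and 0 higher, with a median log2 fold change of -0.33, and none was at 0 in any library. Among these were *Crym*, a thyroid hormone binding protein (log2 fold change -1.41, edgeR adjusted p = 0.0387), and *Dkk3*, a secreted protein of the Dickkopf family (-1.03, edgeR adjusted p = 0.0242). *Slc1a3* itself overlapped between groups, and the part of the lower marker sum in the ratio was not tested.

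The ratio of *Slc1a2* to markers of the neurons that hold it was lower in every microbead library than in every saline library. Its log2 ratio to the 9 cone markers was -1.62, -1.64 and -1.90 in saline replicates 1 to 3 and -2.74, -2.21 and -2.18 in microbead replicates 1 to 3. The groups did not overlap, and the difference was -0.66 (two-sided exact permutation p = 0.1, adjusted 0.333). To the 14 bipolar markers the log2 ratio of *Slc1a2* was -2.12, -2.48 and -2.57 in saline and -3.20, -2.83 and -2.64 in microbead replicates 1 to 3. These groups did not overlap either, with a difference of -0.50 (two-sided exact permutation p = 0.1, adjusted 0.333). The cone and bipolar sums overlapped between groups, at 1139 to 1397 and 1267 to 1558 CPM for cones and 1893 to 2222 and 1740 to 2203 CPM for bipolar cells. Of the 9 cone markers, 1 was called higher (*Arr3*, the cone arrestin, with a log2 fold change of 1.44 and an edgeR adjusted p = 0.0126) and 0 lower, with a median of -0.18. Of the 14 bipolar markers, 0 were called higher and 1 lower (*Nyx*, the nyctalopin of ON bipolar cells, at -1.20 with an edgeR adjusted p = 0.0178), with a median of -0.02. Over all genes tested, 6.46% were called higher and 6.31% lower.

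Against the Müller markers the ratio of *Slc1a2* overlapped between groups, with a difference of -0.14 (two-sided exact permutation p = 0.5, adjusted 0.857). The log2 ratio of *Slc1a2* to *Slc1a3* was 1.16, 0.62 and 0.13 in saline replicates 1 to 3 and -0.13, 0.29 and 0.43 in microbead replicates 1 to 3. Its difference of -0.44 was within the spread of the saline libraries (two-sided exact permutation p = 0.3, adjusted 0.75). The ratios of *Slc1a7* to rod markers (difference 0.08, exact permutation p = 0.6) and to bipolar markers (-0.01, exact permutation p = 1) also overlapped. Of the 14 rod markers, 1 was called higher (*Pdc*, the phosducin that binds transducin) and 1 lower (*Nrl*, the transcription factor of rod identity), beside 12.8% of all genes tested in either direction.

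The ratios of *Slc1a1* to the sums of its 3 marker lists overlapped between groups. Its difference relative to RGC markers was -0.36 (two-sided exact permutation p = 0.8), and it became 0.08 without saline replicate 1, the library with the low RGC sum. Relative to amacrine markers the difference was -0.02 (exact permutation p = 0.9), and relative to horizontal cell markers it was 0.12 (exact permutation p = 0.6). The last value depended on how the markers were combined. With the geometric mean of the horizontal markers in place of their sum it was 0.74, with every microbead library above every saline library (exact permutation p = 0.1, the smallest possible). Of the 7 horizontal markers, 0 were called higher and 1 lower (*Onecut2*, a transcription factor, with a log2 fold change of -1.36) by edgeR, beside 6.31% of all genes tested called lower. DESeq2 called 2 of them lower. Their median was -0.97, while their sums overlapped between groups at 560 to 635 CPM in saline and 549 to 576 CPM in microbead retina. The most abundant of the 7, *Tfap2b* and *Ndrg1*, held 227 and 241 CPM of the mean saline sum of 592 CPM. Their log2 fold changes were 0.17 and -0.02, and those of the other horizontal markers ran from -1.42 to -0.61. Of the 13 RGC markers, 0 were called by edgeR (2 at an unadjusted p-value under 0.05, 0 by DESeq2), and of the 10 amacrine markers 0 were called (3 unadjusted, 2 by DESeq2). Over all 17707 genes tested, 5564 had an unadjusted edgeR p-value under 0.05, and DESeq2 called 3582.

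**Figure D4:**
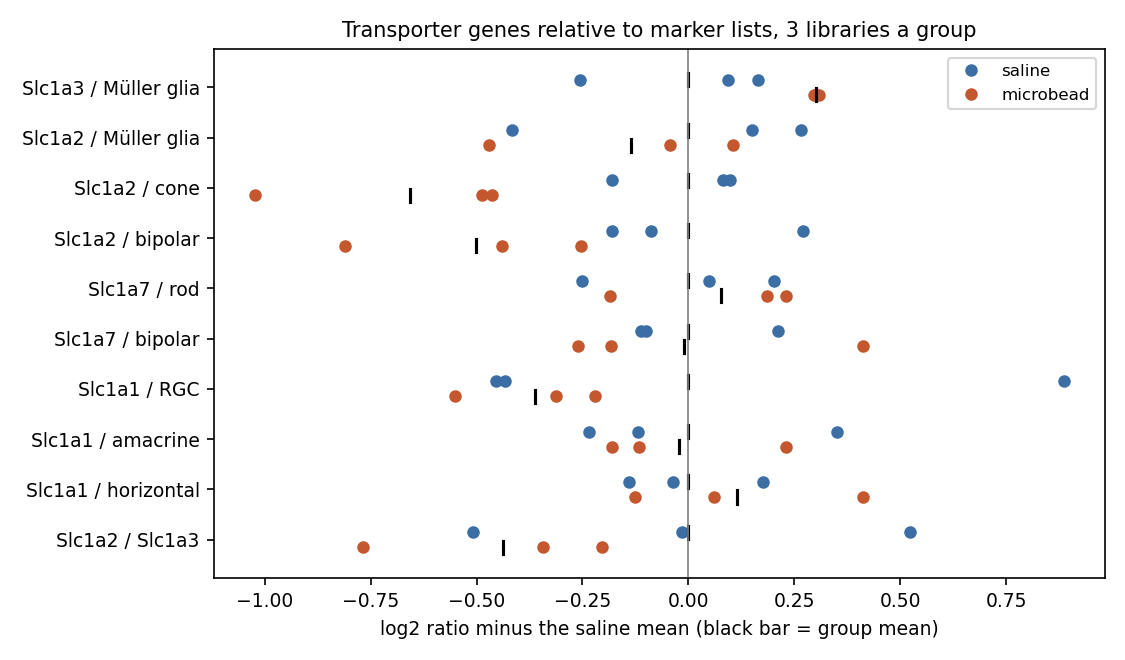
Log2 ratio of a transporter gene to the summed CPM of a marker list, or to Slc1a3, less the mean of the 3 saline libraries (horizontal axis), for each saline (blue) and microbead (orange) library, with a black bar at each group mean. The groups are separate for Slc1a3 to Müller glia (mean difference 0.30), Slc1a2 to cone (-0.66) and Slc1a2 to bipolar markers (-0.50), and overlap in the other 7 ratios.

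Around the carriers, 7 lists of genes of glutamate handling held 50 tested genes, of which 1 was higher and 4 were lower in microbead retina (beside 12.8% of all genes tested, in either direction). Of the 12 enzymes of the cycle that returns glutamate as glutamine, 0 were higher and 2 were lower, with a median log2 fold change of -0.31. *Glud1*, mitochondrial glutamate dehydrogenase, was measured at 99.95, 111 and 136 CPM in saline replicates 1 to 3 and at 66.3, 57.7 and 60.9 CPM in microbead replicates 1 to 3. The groups did not overlap, and its log2 fold change was -0.91 (standard error 0.18, edgeR adjusted p = 0.0174). *Oat*, ornithine aminotransferase, was measured at 128, 98.1 and 134 CPM in saline and 78.5, 68.5 and 59.7 CPM in microbead replicates 1 to 3, likewise with no overlap (log2 fold change -0.80, standard error 0.19, edgeR adjusted p = 0.0288).

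*Glul*, the Müller glial glutamine synthetase that takes the glutamate brought in by *Slc1a3*, was not called. It was measured at 2003, 3066 and 4739 CPM in saline replicates 1 to 3 and at 2802, 2706 and 2396 CPM in microbead replicates 1 to 3, the microbead values lying inside the saline range as they did for *Slc1a3*. Its log2 fold change was -0.31 (standard error 0.29, edgeR adjusted p = 0.491).

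Among the 6 tested carriers of glutamine, 0 were higher and 1 was lower. *Slc38a2*, a sodium-coupled importer of glutamine and other neutral amino acids, was measured at 87.4, 107 and 99.6 CPM in saline and 62.6, 59.1 and 64.1 CPM in microbead replicates 1 to 3 (log2 fold change -0.66, standard error 0.16, edgeR adjusted p = 0.0302). DESeq2 called 3 genes of this list, 1 higher and 2 lower, beside 3582 of the 17707 genes tested. The median of the list was 0.04. Of the 9 genes of cystine-glutamate exchange and glutathione synthesis, 1 was higher and 0 were lower, with a median of -0.08. The 1 was *Gclc*, the catalytic subunit of the enzyme that joins glutamate to cysteine, at 40.5, 46.3 and 51.7 CPM in saline and 70.8, 67.9 and 70.0 CPM in microbead replicates 1 to 3 (log2 fold change 0.59, standard error 0.16, edgeR adjusted p = 0.0452). Groups that do not overlap in this direction were found for 18.8% of all genes tested.

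Of the 10 measured genes whose proteins bind or traffic the carriers, 0 were higher and 1 was lower (median -0.18). *Ajuba*, a LIM domain protein known to bind GLT-1, fell from 11.2 ± 1.43 CPM in saline to 5.83 ± 1.13 CPM in microbead retina (log2 fold change -0.94, standard error 0.25, edgeR adjusted p = 0.0409). The 3 vesicular glutamate transporters, which load glutamate for release, had 0 calls by edgeR (1 at an unadjusted p-value under 0.05, 0 by DESeq2) and a median of -0.42. The 8 Slc6 carriers of other transmitters and solutes also had 0 calls (1 unadjusted, 0 by DESeq2), with a median of -0.34. Over all 17707 genes tested, 5564 had an unadjusted edgeR p-value under 0.05, and DESeq2 called 3582.

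The neutral amino acid members of the same gene family were not called. *Slc1a4* (ASCT1) was measured at 32.1, 18.4 and 18.7 CPM in saline and 16.8, 13.6 and 19.0 CPM in microbead replicates 1 to 3, and *Slc1a5* (ASCT2) at 12.03, 10.3 and 7.62 CPM in saline and 10.8, 9.96 and 15.1 CPM in microbead replicates 1 to 3. Both overlapped between groups, with log2 fold changes of -0.49 (standard error 0.26, edgeR adjusted p = 0.236) and 0.26 (standard error 0.26, edgeR adjusted p = 0.534). These are the sequences least like the 5 glutamate carriers, with coded proteins 42.7% to 48.0% identical to them.

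The 5 calls in these lists rested on the full set of libraries. Leaving out the second saline, the second microbead or the third microbead library brought the number called to 0. It was 1 when the first microbead library was left out, 2 for the third saline library and 9 for the first saline library. All 5 genes kept their direction in these fits, with edgeR adjusted p-values of 0.0136 to 0.0867 for *Glud1*, 0.0442 to 0.120 for *Oat*, 0.0282 to 0.141 for *Slc38a2*, 0.0497 to 0.164 for *Gclc* and 0.0550 to 0.137 for *Ajuba*. *Ajuba* also missed the threshold when mitochondrial genes (edgeR adjusted p = 0.0605) or the 100 most abundant genes (edgeR adjusted p = 0.0527) were left out of library sizes, both without TMM scaling. *Gclc* missed it with no filter on low counts (edgeR adjusted p = 0.0813).

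**Figure D5:**
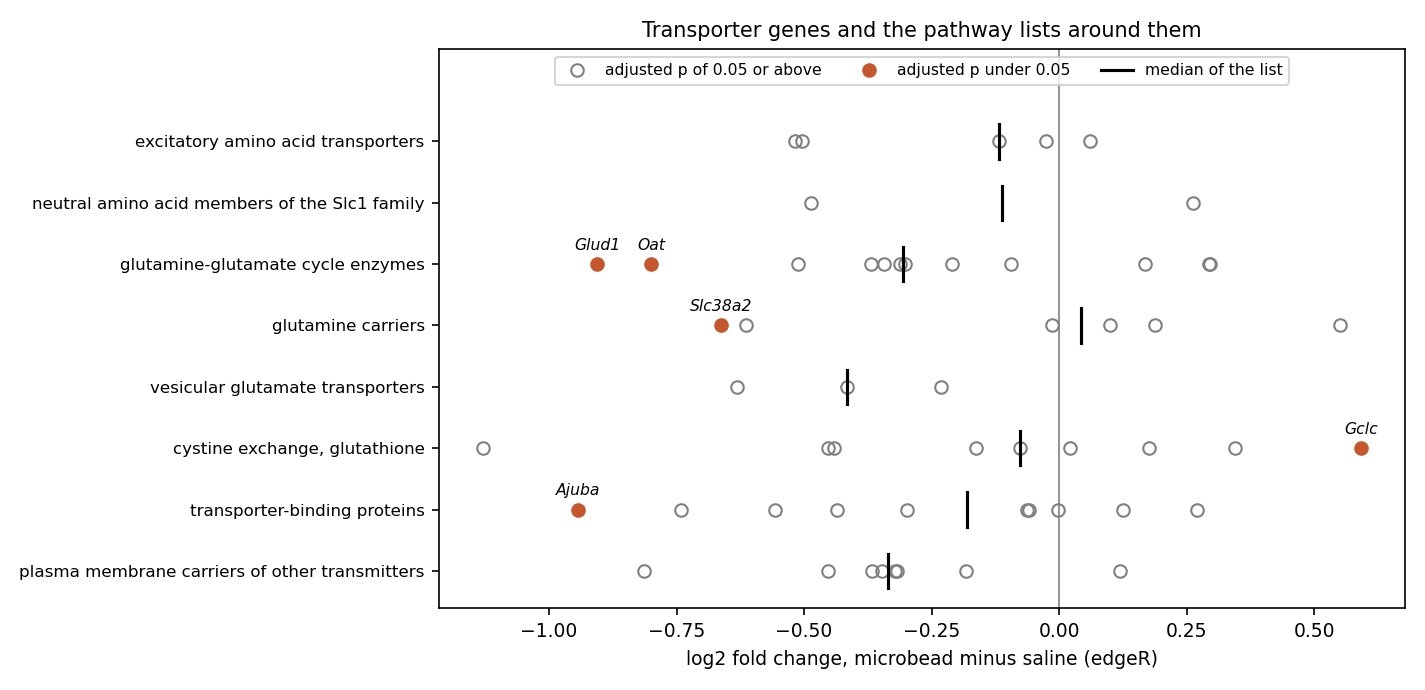
Log2 fold change of microbead minus saline by edgeR (horizontal axis) for each tested gene of the glutamate transporter family and of 7 lists around it, with genes of adjusted p-value under 0.05 filled and named, and the median of each list as a black bar. The 5 transporter genes are open circles from -0.52 to 0.06, and the 5 filled genes are Glud1, Oat, Slc38a2, Gclc and Ajuba.

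Genes whose level followed that of each carrier most closely were sought over the 6 libraries by Pearson's r of log2 CPM, among more than 10000 genes with a mean of at least 10 CPM. *Slc1a2* was followed most closely by *Stard3nl* (r = 0.994) and *Pcdhb20* (r = 0.993), and 400 genes had an r above 0.9 with it. *Slc1a3* was followed by *Zcchc12* (r = 0.986) and *Herc3* (r = 0.981), with 74 genes above 0.9. For *Slc1a1* the closest were *Fth1* (r = 0.991) and *Tram1l1* (r = 0.989), for *Slc1a6* *Samd14* (r = 0.995) and *Lrrc4b* (r = 0.991), and for *Slc1a7* *Tctn2* (r = 0.977) and *Ddx49* (r = 0.976). The libraries share group, depth and mitochondrial share in these correlations. The genes named are the highest of many candidates over only 6 libraries. How many genes would reach an r above 0.9 by chance was not tested. No transporter was among the closest genes of another.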

How the data were processed

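The 3 saline and 3 microbead libraries of whole retina were grouped by the treatment in the sample records. Per the study's methods and the submitters' processing notes, the authors aligned 100-base paired reads with STAR 2.5.3a to GRCm38.p5 with GENCODE vM12 and counted them per gene with featureCounts 1.15.2. The deposited values are raw counts. The handling of strand and of reads with several matches is not given in the sources used here. The deposited table also holds the authors' DESeq2 1.14 comparison (fold changes and p-values), which was not used.

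The main test was the quasi-likelihood F test in edgeR 4.0.16 (R 4.3.3), after filterByExpr with a count of 10 and a total of 15 as minimum and TMM scaling (two-sided, Benjamini-Hochberg over all 17707 genes, threshold 0.05). CPM were scaled to 1000000 counts after TMM. Lengths, positions and sequences came from GENCODE vM21, on the same build. Ratios to marker lists were compared with two-sided exact permutation tests. Results were recomputed with DESeq2 1.42.0 and limma-voom (limma 3.58.1), with upper-quartile or RLE scaling, with the 100 most abundant genes or the mitochondrial genes taken out of library sizes, without a filter, with a filter of 10 counts in each library, with the replicate number as a block, with a further limit of 2-fold, and leaving out each library. Where genes were taken out of library sizes, TMM scaling was not applied. The edgeR, DESeq2 and limma-voom fits were run on simulated counts, and the other steps were not.

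The members and gene lists were chosen with earlier results of these data known. Genes named are the transporters, *Slc1a4*, *Slc1a5*, *Glul*, up to 4 genes called per pathway list and 2 per marker list by size of change, and the 2 genes most alike in level to each transporter. *Gm5822*, *4430402I18Rik* and *Gm13872* are named because they overlap a transporter gene, and *Tfap2b* and *Ndrg1* as the most abundant horizontal cell markers. Total counts ran from 13574949 to 46481382, and statements on counting cover counting error only. The chi-square per degree of freedom between libraries of 1 group was 20.1 or more, so no library was a repeat of another.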

Additional observations from a re-analysis of the deposited data

How the results depend on the processing

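Over 75 alternative fits of the 5 transporter genes, 65 kept both direction and side of the threshold. The call of *Slc1a2* was gained with DESeq2 (log2 fold change -0.50, adjusted p = 0.0437), which made the count of transporters called 1, and the cause was not tested. Sign changes were limited to values near 0. *Slc1a7* turned to 0.018 with upper-quartile scaling, 0.037 without the 100 most abundant genes and 0.059 without mitochondrial genes in library sizes. The last of these fits and the one before it were without TMM scaling. With 1 library left out, log2 fold changes ran from -0.12 to 0.21 for *Slc1a1*, -0.60 to -0.42 for *Slc1a2*, -0.29 to 0.14 for *Slc1a3*, -0.74 to -0.38 for *Slc1a6* and -0.15 to 0.051 for *Slc1a7*. The median of all genes tested moved by less than 0.1 under every scaling tried.

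Genes called numbered 3720 with no filter, 3582 with DESeq2, 1248 with a further 2-fold limit, and 46 to 2621 with 1 library left out. Calls in the pathway lists numbered 0 with the 2-fold limit and 0 to 9 with 1 library left out. The replicate numbers did not pair the samples, since same-numbered libraries correlated by -0.04 to 0.14 and 2 of 6 libraries correlated best with their own number. With the replicate block, 0 transporters, 905 genes and 1 list gene were called, and *Slc1a2* had a log2 fold change of -0.52 (edgeR adjusted p = 0.133).

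Levels per kb without the 100 most abundant genes in library sizes rose for every transporter, to 6.11 and 6.69 (*Slc1a1*, saline and microbead), 39.2 and 28.6 (*Slc1a2*), 39.4 and 38.2 (*Slc1a3*), 3.54 and 2.62 (*Slc1a6*) and 49.7 and 51.0 (*Slc1a7*). The same counts were divided by a smaller total, without TMM scaling. With geometric means of markers, the ratio difference turned to 0.023 for *Slc1a7* to bipolar and 0.16 for *Slc1a1* to amacrine markers, and moved from 0.12 (exact permutation p = 0.6) to 0.74 (exact permutation p = 0.1) for *Slc1a1* to horizontal cell markers. A sum is weighted to the abundant markers and a geometric mean is not. The part of single markers in these moves was not tested. With 1 library left out, the differences ran from 0.17 to 0.38 for *Slc1a3* and -0.34 to 0.032 for *Slc1a2* to Müller markers, -0.75 to -0.48 for *Slc1a2* to cone, -0.63 to -0.35 for *Slc1a2* to bipolar, -0.049 to 0.21 for *Slc1a7* to rod, -0.22 to 0.12 for *Slc1a7* to bipolar, -0.59 to 0.083 for *Slc1a1* to RGC, -0.15 to 0.15 for *Slc1a1* to amacrine and -0.032 to 0.24 for *Slc1a1* to horizontal cell markers, and -0.69 to -0.18 for *Slc1a2* to *Slc1a3*. Depth limits *Slc1a6* most, at 48 to 300 counts.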
